A study of Rattus norvegicus with 24 samples.

Results

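Astrocytes take up water, potassium and glutamate around neurons, and 10 genes of this work were examined in the rat supraoptic nucleus: Aqp4, Kcnj10, Slc1a2, Slc1a3, Glul, Gfap, Vim, Gja1, Gjb6 and S100b. Every probe set whose only gene symbol in the annotation of the array platform is one of these was taken, which gave 19 of the 31099 probe sets and 10 of the 14218 symbols. That rule uses the annotation and no measured value, but the 10 genes were chosen with earlier results of these data known. The question was how their RNA differed between dehydrated and control rats.

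Each array held RNA of supraoptic nuclei pooled from 5 Sprague Dawley rats, with no transgene or mutation in any group. The 4 groups came as 2 array sets. The female set had 4 arrays of rats kept without water for 72 hours, with free access to food, and 4 arrays of control females with normal hydration; the age of the females is not given in the sources used here. The male set had 5 arrays of rats kept without water for 3 days and 5 arrays of controls, all aged 10 to 12 weeks. Male and female RNA was extracted and labelled by different protocols, so sex cannot be told apart from protocol. The design text allows that arrays of a group are technical as well as biological replicates, so the p-values measure the spread between arrays. That need not be the spread between pools or between rats. Arrays of females on day 11 of lactation were not analysed here.

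The supraoptic nucleus holds the magnocellular neurons that make vasopressin and oxytocin, which are released into the blood from the posterior pituitary. Its astrocytes wrap these neurons and send processes to the ventral glial lamina, which lies against the meninges below the brain. Astrocytes carry aquaporin-4 and the Kir4.1 potassium channel on their endfeet, take glutamate from the extracellular space through the transporters GLT-1 and GLAST, turn it into glutamine with glutamine synthetase, and pass ions and small molecules to each other through gap junctions of connexin 43 and connexin 30. In dehydrated rats these processes are known to retract from between the neurons.

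Signals are given as deposited, on a scale where the trimmed mean of every array is 100, and a signal of one probe set is not comparable with that of another. Differences are log2 fold changes of dehydrated over control ± SE from limma on rescaled signals, and a gene is said to have risen or fallen where the p adjusted by the Benjamini-Hochberg method over all 21729 probe sets tested was under 0.05. The median signal of the arrays used lay between 36.1 and 46.5; in males it was 36.1 to 38.3 on dehydrated arrays, against 38.9 to 40.4 on control arrays (exact permutation test, 2-sided p = 0.00794, the smallest that 5 against 5 arrays can give, adjusted over 12 measures 0.0714). The number of arrays limits the precision. Another array labelled as dehydrated female, replicate 5, was left out. It had a signal of 50.6 for Avp, against 3644 to 7666 across the remaining 8 females, and 2.59 for Xist, against 462 to 694. For the Y-linked Eif2s3y it had 242, against 0.102 to 8.94 across those females and 252 to 391 across the males. Of the 19 probe sets, 7 lay above and 4 below the range of the other females on that array. The share over all probe sets was not counted, so these counts are no result about the 19.

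Of the 10 genes, Gjb6, the gene of connexin 30, fell in both sexes. In males Vim, the gene of the filament protein vimentin, and Gja1, the gene of connexin 43, also fell, while the strongest probe sets of Aqp4, Slc1a3, Glul, Gfap and S100b missed the threshold in both sexes. A weak probe set of Slc1a3, the gene of GLAST, rose in males while the other probe sets of the same gene did not. In a fit that held the signal of mural cell and meninges markers as a covariate, the fall of Gjb6 was called in neither sex. The male falls of Vim and Gja1 and the male rise of Slc1a3 were not called there either. Male falls of a weak probe set of Aqp4 and of another of Slc1a3 stayed called. Over all 21729 probe sets tested, that fit called 15 in females, in place of 643, and 888 in males, in place of 3846. The values stand with those markers. With arrays centred on their median, 1 of the 9 tested genes fell in males, in place of 3, and 0 in females, in place of 1. Over all probe sets tested, 1091 then fell in males, in place of 2038, and 114 in females, in place of 259. Because the tissue was measured in bulk, fewer cells of a type and less RNA per cell cannot be told apart.

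After the filter on low signal, 17 of the 19 probe sets were tested; the probe set of Kcnj10 and 1 of the 3 of Gja1 were below it. In females 1 of the 17 fell and 0 rose in limma's test, and 3 had an unadjusted p under 0.05 (1 higher and 2 lower). Over all probe sets tested, 2.96% were called in females, with 1.77% higher and 1.19% lower. In males 5 of the 17 fell and 1 rose, and 9 had an unadjusted p under 0.05 (1 higher and 8 lower). The male background was 17.7%, with 8.32% higher and 9.38% lower. Of all 21729 probe sets tested, 4118 in females and 6815 in males had an unadjusted p under 0.05. Of the 17, 0 had all dehydrated female arrays above the controls and 2 had all of them below (background 5.31% and 7.03%), and in males 1 had all above and 0 all below (6.82% and 5.84%). By gene, taking the probe set with the highest mean, 1 of 9 tested genes fell in females and 3 of 9 in males. The median log2 change of the 9 genes was -0.11 in females and -0.15 in males, beside -0.03 and -0.04 over all probe sets tested in the same comparisons.

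**Figure D1:**
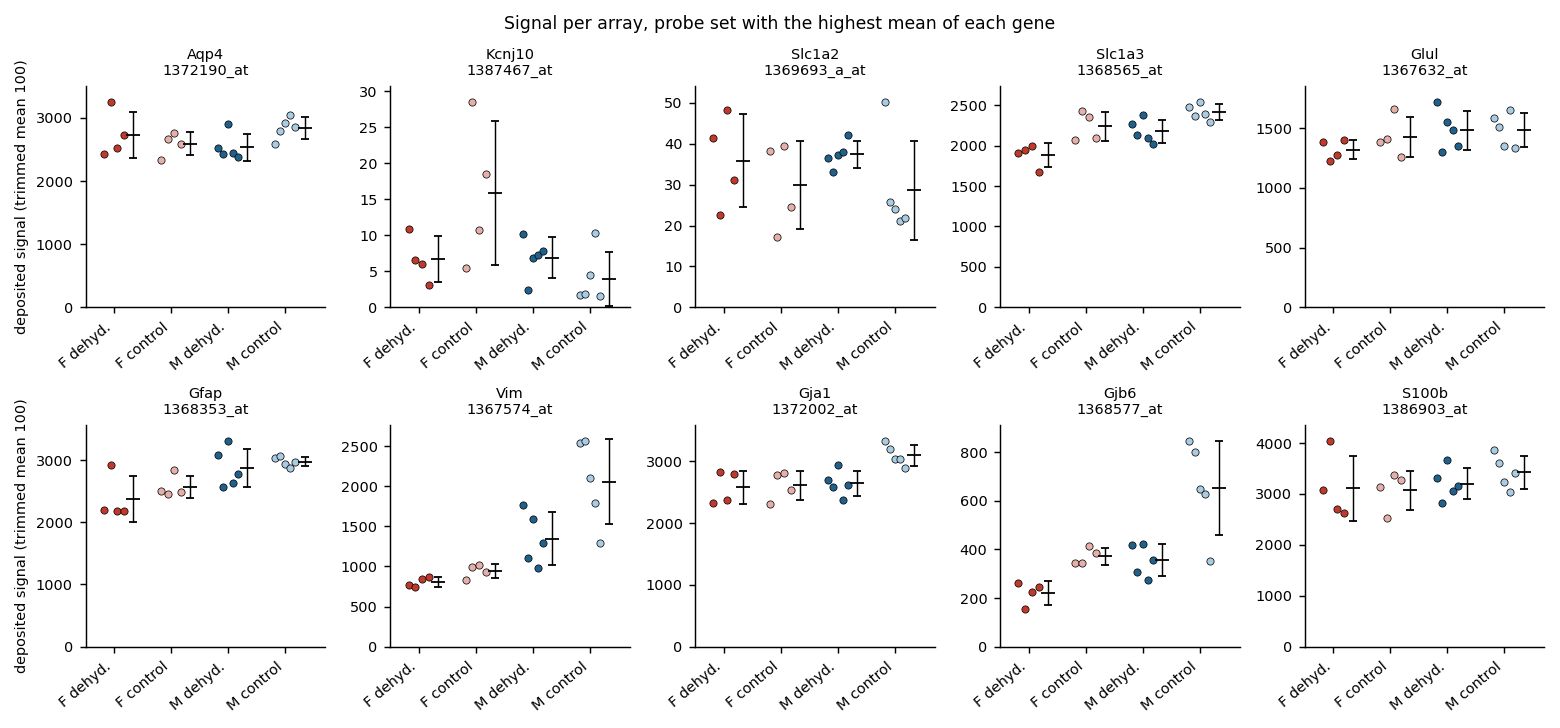
Deposited signal (vertical axis, trimmed mean of 100) on each array for the probe set with the highest mean of each of the 10 genes; F and M stand for female and male and dehyd. for dehydrated, points are arrays and the bars beside them are the mean and SD. Each panel has its own vertical axis. Gjb6 is lower on dehydrated than on control arrays in both sexes, Vim mainly in males and Gja1 in males. The signals of Kcnj10 are low, from 1.5 to 28.5.

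Connexins couple astrocytes, and Gjb6 had the largest difference in both sexes among the strongest probe sets of the 9 tested genes. Its signal was 262, 153, 223 and 245 on the dehydrated female arrays, against 343, 343, 414 and 387 on the control female arrays. The female groups did not overlap, and dehydrated replicate 2 was the lowest. The means were 221 ± 47.7 and 372 ± 35.3 (SD, n = 4 each), which gave -0.76 ± 0.16 on the log2 scale (limma, adjusted p = 0.0263), or 40.8% lower in dehydrated females. The female call was lost without control replicate 1 (adjusted p = 0.0607), control replicate 3 (0.0941) or control replicate 4 (0.0682), with arrays centred on their median (0.0583) and without the mean-variance trend (0.0654). With the left-out replicate 5 included the change was -0.61 ± 0.21 (adjusted p = 0.466).

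In males the signal of Gjb6 was 419, 309, 422, 275 and 357 on the dehydrated arrays, against 845, 800, 650, 628 and 351 on the control arrays. Control replicate 5 lay within the range of the dehydrated males, and the other 4 control arrays lay above all of them. The means were 356 ± 65.1 and 655 ± 194 (SD, n = 5 each), and the log2 fold change was -0.82 ± 0.19 (limma, adjusted p = 0.00833). It was called in 10 of 10 fits that left out an array, between -1.03 and -0.72. The difference between the female and the male effect, from 1 fit of all 18 arrays, was 0.07 ± 0.28 (female minus male), with a 95% interval of -0.51 to 0.65 (adjusted p = 0.972).

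Gja1 was lower in dehydrated males by a small amount at its strong probe set, 1372002_at. Signals were 2705, 2586, 2937, 2378 and 2621 in dehydrated males, against 3325, 3206, 3038, 3034 and 2895 in control males. Only dehydrated replicate 3 reached into the range of the controls, whose lowest array was replicate 5. The log2 fold change was -0.23 ± 0.06 (limma, adjusted p = 0.011), and it held in 10 of 10 fits that left out an array. It missed the threshold when arrays were centred on their median (-0.15 ± 0.06, adjusted p = 0.0793), without the mean-variance trend (0.0638) and in the fit of all 4 groups (0.077). In females the signals were 2328, 2829, 2377 and 2796 on dehydrated arrays, against 2314, 2774, 2819 and 2543 on control arrays. These groups overlapped over nearly their whole ranges, and the change was -0.02 ± 0.12 (95% interval -0.28 to 0.25, adjusted p = 0.952). The female and male effects were not called different, at 0.21 ± 0.12 (95% interval -0.04 to 0.47, limma, adjusted p = 0.603).

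The second tested probe set of Gja1, 1369640_at, was weak. It had signals of 48.6, 47.1, 41.9 and 27.2 in dehydrated females, against 49.5, 18.5, 9.98 and 32.2 in control females, and from 9.6 to 20.6 in dehydrated males, against 18.8 to 38.5 in control males. Its changes had opposite signs, 0.61 ± 0.34 in females (adjusted p = 0.356) and -0.53 ± 0.20 in males (adjusted p = 0.0864). The difference of these effects was 1.14 with an unadjusted p of 0.00979 and an adjusted p of 0.319. The probe set below the filter, 1369639_at, had signals between 3.3 and 30.6 on the arrays used.

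Among the other gap junction and pannexin genes, 5 of the 7 with a probe set were tested in each sex, and 1 fell and 2 rose in both. Gjb2, the gene of connexin 26, which is also known from cells of the leptomeninges, had a mean signal of 207 ± 18.5 in dehydrated females and 370 ± 82.1 in control females, and of 288 ± 110 in dehydrated males and 594 ± 108 in control males. Its log2 fold change was -0.79 ± 0.16 in females (limma, adjusted p = 0.0263) and -1.09 ± 0.22 in males (0.00332). Gjc1, the gene of connexin 45, which joins neurons and vascular muscle cells, rose by 0.73 ± 0.15 in females (0.0286) and by 0.84 ± 0.19 in males (0.00723). Panx1, a channel that releases ATP, rose by 0.59 ± 0.13 in females (0.036) and by 0.60 ± 0.13 in males (0.00623).

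Gjb6 and Gjb2 lie next to each other on rat chromosome 15 in the RefSeq order of protein-coding genes, and both fell in both sexes, so their promoters are shown together. Each runs from 250 bases before to 50 bases after a RefSeq transcription start (build GRCr8), on the minus strand, 5′ to 3′. The capitals mark GC boxes, the letters GGGCGG on either strand. The sequences are those of the first listed start of each gene.
Gjb6, chr15:35410089-35410388: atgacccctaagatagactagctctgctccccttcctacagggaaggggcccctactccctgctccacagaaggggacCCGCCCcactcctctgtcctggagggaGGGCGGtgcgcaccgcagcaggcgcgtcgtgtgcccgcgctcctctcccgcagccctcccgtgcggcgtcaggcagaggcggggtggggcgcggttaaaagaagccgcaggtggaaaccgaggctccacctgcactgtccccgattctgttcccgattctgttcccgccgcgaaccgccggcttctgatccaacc
Gjb2, chr15:35381904-35382203: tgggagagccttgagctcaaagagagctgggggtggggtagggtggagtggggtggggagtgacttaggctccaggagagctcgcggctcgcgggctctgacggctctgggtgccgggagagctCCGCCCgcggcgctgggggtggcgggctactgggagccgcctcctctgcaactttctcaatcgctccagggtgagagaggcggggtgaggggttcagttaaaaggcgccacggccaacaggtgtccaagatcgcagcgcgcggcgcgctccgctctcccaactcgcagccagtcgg

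The Gjb6 window held 2 GC boxes and the Gjb2 window 1, with a GC content of 67.0% and 68.0%. A second listed start of Gjb6, at chr15:35408913-35409212, held 1 GC box at a GC content of 52.3%. Of the 33469 rat promoters of this length, 33.1% held a GC box. TATA boxes (TATAAA), AP-1 sites (TGANTCA) and cyclic AMP response elements (TGACGTCA), searched on both strands, had no match in these 3 windows; they occurred in 14.2%, 7.33% and 1.83% of all promoters.

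**Figure D2:**
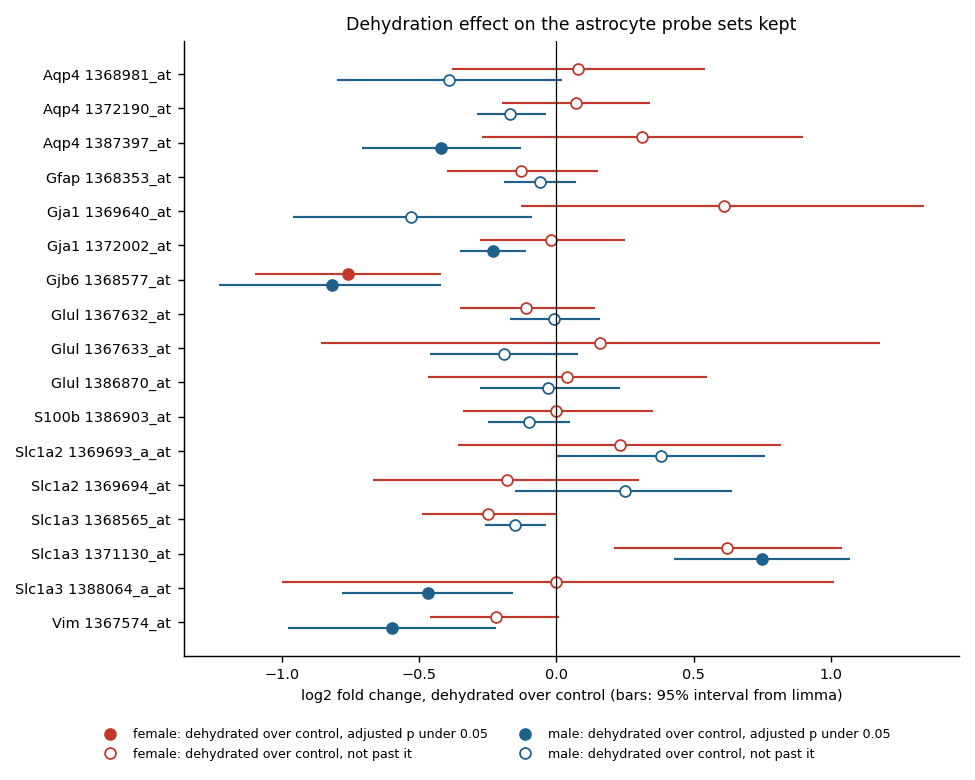
Log2 fold change of dehydrated over control (horizontal axis) with its 95% interval from limma for the 17 probe sets tested, females in red and males in blue; filled points had an adjusted p under 0.05. Gjb6 is filled in both sexes, and for Slc1a3 the points of 1 gene lie on both sides of 0.

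Vim encodes the intermediate filament vimentin, which is found in immature and reactive astrocytes and also in meningeal and vascular cells. In males its signal was 1768, 1105, 1592, 981 and 1293 on dehydrated arrays, against 2546, 2561, 2104, 1787 and 1298 on control arrays. The groups overlapped through control replicate 5, which lay near the middle of the dehydrated arrays. The means were 1348 ± 329 and 2059 ± 535 (SD, n = 5 each), and Vim fell by 0.60 on the log2 scale (SE 0.18, limma, adjusted p = 0.0324). The male call was lost in 6 of the 10 fits that left out an array, those without dehydrated replicate 2, 4 or 5 or control replicate 1, 2 or 3 (adjusted p from 0.0636 to 0.0838). It was also lost with arrays centred on their median (0.0553), with no filter (0.0664) and without the mean-variance trend (0.0794), and with the meninges markers as a covariate the value was 0.11 ± 0.09 (0.53).

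In females Vim had signals of 763, 748, 840 and 867 on dehydrated arrays, against 825, 993, 1014 and 933 on control arrays. Control replicate 1 lay among the dehydrated arrays. The change was -0.22 ± 0.11 (95% interval -0.46 to 0.01, adjusted p = 0.285). The difference between the female and male effects was 0.38 ± 0.24 (adjusted p = 0.655).

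Gfap, the filament protein that marks mature astrocytes, was called in neither sex. Its signal was 2197, 2921, 2185 and 2183 in dehydrated females, against 2510, 2451, 2837 and 2484 in control females. All dehydrated arrays but replicate 2 were below the controls. In males it was 3087, 2572, 3302, 2639 and 2774 on dehydrated arrays, against 3040, 3063, 2933, 2880 and 2977 on control arrays, which lay inside the spread of the dehydrated ones. The log2 changes were -0.13 ± 0.13 in females (95% interval -0.40 to 0.15, adjusted p = 0.64) and -0.06 ± 0.06 in males (-0.19 to 0.07, adjusted p = 0.569).

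S100b, a calcium-binding protein of astrocytes, had signals of 2618 to 4033 in dehydrated females, against 2522 to 3375 in control females, and of 2824 to 3658 in dehydrated males, against 3038 to 3873 in control males. The groups overlapped in both sexes. The changes were 0.00 ± 0.16 (95% interval -0.34 to 0.35) in females and -0.10 ± 0.07 (-0.25 to 0.05) in males, with adjusted p-values of 0.991 and 0.371.

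Among other filament and reactive astrocyte genes, 1 of 13 tested in females rose and 0 fell in limma's test (unadjusted p under 0.05 for 3 higher and 3 lower), and in males 1 of 12 rose and 3 fell. The gene that rose was Lcn2 in both sexes, a secreted iron carrier known from reactive astrocytes. Its mean signal was 70.7 ± 14.3 in dehydrated females and 26.8 ± 14.2 in control females, and 65.8 ± 7.77 in dehydrated males and 27.1 ± 5.63 in control males. The log2 fold changes were 1.31 ± 0.29 (limma, adjusted p = 0.0366) in females and 1.12 ± 0.13 (6.47e-05) in males. In males the filament genes Synm and Des fell, with changes of -0.68 ± 0.14 (0.00362) and -0.61 ± 0.14 (0.00705); desmin is a protein of muscle and vascular mural cells.

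Slc1a3 encodes GLAST, which carries glutamate into astrocytes, and its 3 probe sets differed in direction. The strong one, 1368565_at, had signals of 1914, 1953, 1994 and 1671 in dehydrated females, against 2074, 2431, 2350 and 2101 in control females. In dehydrated males they were 2274, 2130, 2380, 2092 and 2024, against 2480, 2371, 2540, 2396 and 2297 in control males. Every dehydrated female array lay below every control female array, while the male groups overlapped through dehydrated replicate 3. The changes, -0.25 ± 0.11 in females (limma, adjusted p = 0.255) and -0.15 ± 0.05 in males (0.0516), missed the threshold. The male value passed without dehydrated replicate 3 (adjusted p = 0.0183) or control replicate 5 (0.0378).

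The probe set 1371130_at of Slc1a3 was weaker and differed in the other direction. It had signals of 381, 264, 292 and 184 in dehydrated females, against 182, 141, 199 and 178 in control females. Dehydrated replicate 4 was within the range of the controls and the other 3 arrays were above it. The change was 0.62 ± 0.19, with an unadjusted p of 0.00661 and an adjusted p of 0.101 in limma. It passed without dehydrated replicate 4 (0.81 ± 0.15, adjusted p = 0.0291), with array weights (0.0215) and in the fit of all 4 groups (0.0377).

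In males 1371130_at had signals of 103, 100, 82.8, 95.5 and 93.6 on dehydrated arrays, against 44.5, 57.7, 36.0, 63.1 and 75.1 on control arrays. The male groups did not overlap. The log2 fold change was 0.75 ± 0.15 (limma, adjusted p = 0.0035), a mean of 95.1 ± 7.88 against 55.3 ± 15.4 (SD, n = 5 each), and it was called in 10 of 10 fits that left out an array.

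The probe set 1388064_a_at of Slc1a3 had signals of 53.6, 77.3, 47.6, 64.8 and 66.1 in dehydrated males, against 97.6, 69.0, 91.4, 70.9 and 114 in control males. The groups overlapped through dehydrated replicate 2. The change was -0.47 ± 0.15 (limma, adjusted p = 0.0385), and the call was lost in 7 of 10 fits that left out an array, those without dehydrated replicate 1, 3, 4 or 5 or control replicate 1, 3 or 5 (adjusted p up to 0.0838). The call did not hold with quantile normalization (0.0922), median centring (0.0803), no filter (0.0668), array weights (0.0541), no mean-variance trend (0.0635) or all 4 groups in the fit (0.413). In females it had 158, 207, 182 and 67.9 on dehydrated arrays, against 220, 44.6, 154 and 256 on control arrays. The female groups overlapped over most of their ranges, with a change of 0.00 ± 0.46 (adjusted p = 0.997).

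**Figure D3:**
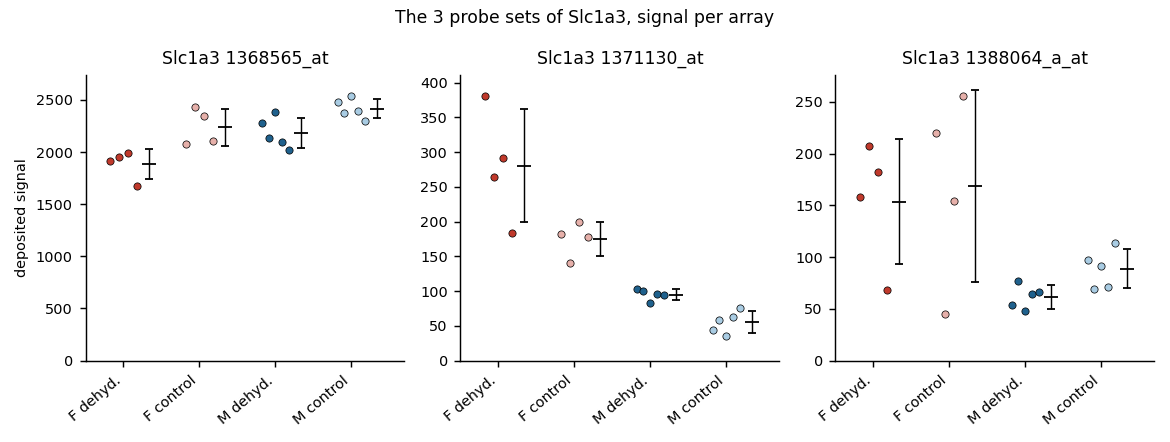
Deposited signal (vertical axes, trimmed mean of 100) on each array for the 3 probe sets of Slc1a3; F and M stand for female and male, dehyd. for dehydrated, points are arrays and bars are the mean and SD. The probe set 1371130_at is higher and 1368565_at lower on dehydrated arrays, and 1388064_a_at is widely spread among females.

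Slc1a2 encodes GLT-1, the main glutamate transporter of forebrain astrocytes, and both of its probe sets were weak on these arrays. The probe set 1369693_a_at had signals of 41.5, 22.5, 48.3 and 31.1 in dehydrated females, against 38.2, 17.3, 39.4 and 24.6 in control females. In males it had 36.5, 33.2, 37.2, 38.1 and 42.2 on dehydrated arrays, against 50.2, 25.7, 24.0, 21.1 and 21.9 on control arrays. All male control arrays but replicate 1 were below the dehydrated ones. The changes were 0.23 ± 0.27 in females (limma, adjusted p = 0.691) and 0.38 ± 0.18 in males (0.164). Without control replicate 1 the male change was 0.57 ± 0.13 (adjusted p = 0.00994). The probe set 1369694_at had signals from 15.4 to 37.9 on the arrays used, and changes of -0.18 ± 0.22 in females and 0.25 ± 0.19 in males (adjusted p = 0.707 and 0.388).

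Glul encodes glutamine synthetase, which makes glutamine from the glutamate that astrocytes take up. Its strong probe set, 1367632_at, had signals of 1385, 1229, 1273 and 1397 in dehydrated females, against 1388, 1406, 1657 and 1256 in control females. Dehydrated males had 1718, 1302, 1550, 1481 and 1352, against 1583, 1510, 1348, 1651 and 1331 in control males. The groups overlapped in both sexes. The changes were -0.11 ± 0.11 in females (95% interval -0.35 to 0.14) and -0.01 ± 0.08 in males (-0.17 to 0.16), with adjusted p-values of 0.662 and 0.973. The other probe sets, 1367633_at and 1386870_at, had changes between -0.19 and 0.16 and were not called.

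Among other genes of glutamate, glutamine and GABA handling, 14 were tested in each sex; 1 rose and 2 fell in females, and 1 rose and 3 fell in males. Slc1a4, which exchanges serine, alanine and cysteine, rose by 0.63 ± 0.13 in females (limma, adjusted p = 0.031) and by 0.73 ± 0.08 in males (2.49e-05), with mean signals of 249 ± 46.1 in dehydrated and 157 ± 6.89 in control females and of 265 ± 9.40 in dehydrated and 158 ± 18.1 in control males. Grm3, a metabotropic glutamate receptor of astrocytes and neurons, changed by -0.73 ± 0.17 in females (0.0456) and by -0.47 ± 0.13 in males (0.0206). Glud1, which breaks glutamate down in mitochondria, changed by -0.52 ± 0.12 in females (0.0402) and by -0.38 ± 0.07 in males (0.00132). Slc7a11, which exchanges cystine for glutamate and is also present in meninges, fell in males (-0.66 ± 0.15, 0.00862); its female value was -0.18 ± 0.12 (0.454).

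Aqp4 is the water channel of astrocyte endfeet. Its strong probe set, 1372190_at, had signals of 2432, 3250, 2519 and 2737 in dehydrated females, against 2339, 2669, 2765 and 2579 in control females. In dehydrated males they were 2521, 2423, 2905, 2438 and 2378, against 2584, 2787, 2921, 3042 and 2862 in control males. The female groups overlapped, and in males dehydrated replicate 3 alone lay within the range of the controls. The changes were 0.07 ± 0.12 in females (95% interval -0.20 to 0.34, limma, adjusted p = 0.8) and -0.17 ± 0.06 in males (-0.29 to -0.04, 0.0636). The male value passed the threshold without dehydrated replicate 3 (adjusted p = 0.00905) or without control replicate 1 (0.0322).

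The weaker Aqp4 probe set 1387397_at had signals of 75.9, 86.4, 58.1, 77.9 and 84.8 in dehydrated males, against 99.6, 76.4, 114, 103 and 134 in control males. The groups overlapped through control replicate 2. The change was -0.42 ± 0.14 (limma, adjusted p = 0.0438), and the call was lost in 8 of 10 fits that left out an array, all but those without dehydrated replicate 2 or control replicate 2 (adjusted p up to 0.0968). It was also lost with quantile normalization (0.0979), centring on the median (0.0987), no filter (0.0723), no mean-variance trend (0.0716) and in the fit of all 4 groups (0.211). In females the signals were 214, 185, 191 and 96.1 on dehydrated arrays, against 166, 88.7, 105 and 191 on control arrays. These overlapped, with a change of 0.31 ± 0.27 (adjusted p = 0.572). The difference between the female and male effects was 0.73 ± 0.31, with an unadjusted p of 0.0271 and an adjusted p of 0.42. The third probe set, 1368981_at, had changes of 0.08 ± 0.21 in females and -0.39 ± 0.19 in males (adjusted p = 0.871 and 0.179).

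Among the partners of Aqp4 in water handling and at the endfoot, 0 of 9 tested genes were called in females in limma's test, and 3 were lower at an unadjusted p under 0.05. The gene with the smallest p was Agrn, a matrix protein of endfeet, at -0.50 ± 0.12 (limma, unadjusted p = 0.0015, adjusted p = 0.0502). In males 1 of 10 rose and 2 fell. Lrrc8a, a subunit of the volume-regulated anion channel, rose by 0.18 ± 0.05 (0.0213). Mlc1, a membrane protein of endfeet, changed by -0.40 ± 0.08 (0.00261), and Dag1, the dystroglycan that anchors the endfoot complex to the basal lamina, by -0.31 ± 0.08 (0.0128).

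Kcnj10, the gene of the Kir4.1 potassium channel, was below the filter. Its only probe set had signals of 10.9, 6.58, 5.95 and 3.15 in dehydrated females, against 5.47, 28.5, 10.8 and 18.5 in control females. In males it had 10.2, 2.40, 6.80, 7.30 and 7.80 on dehydrated arrays, against 1.70, 1.90, 4.50, 10.3 and 1.5 on control arrays. The groups overlapped in both sexes, and no test was made. Among other potassium uptake genes, 0 of 6 were called in females and 2 were lower at an unadjusted p under 0.05; the smallest p was that of Kcnk2, a leak channel, at -0.45 ± 0.12 (limma, unadjusted p = 0.00242, adjusted p = 0.064). In males 1 of 6 rose, the leak channel gene Kcnk1 (0.56 ± 0.12, adjusted p = 0.00661), and 1 fell, Kcnk2 (-0.49 ± 0.13, 0.0138).

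Among genes of astrocyte processes and adhesion, 1 of 17 rose and 0 fell in females in limma's test (unadjusted p under 0.05 for 1 higher and 4 lower), and 1 rose and 7 fell in males. The gene that rose in both sexes was Msn, the actin linker moesin, which is also abundant in endothelium and microglia. Its mean signal was 514 ± 39.3 in dehydrated and 315 ± 17.9 in control females, and 513 ± 27.1 in dehydrated and 280 ± 29.6 in control males. The changes were 0.69 ± 0.10 (limma, adjusted p = 0.00472) in females and 0.86 ± 0.07 (2.93e-06) in males. The largest falls in males were those of Gpc6, a glypican that astrocytes release to promote synapses, at -0.53 ± 0.13 (0.0135), and of Efnb1, the ligand ephrin-B1, at -0.53 ± 0.16 (0.0352).

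**Figure D4:**
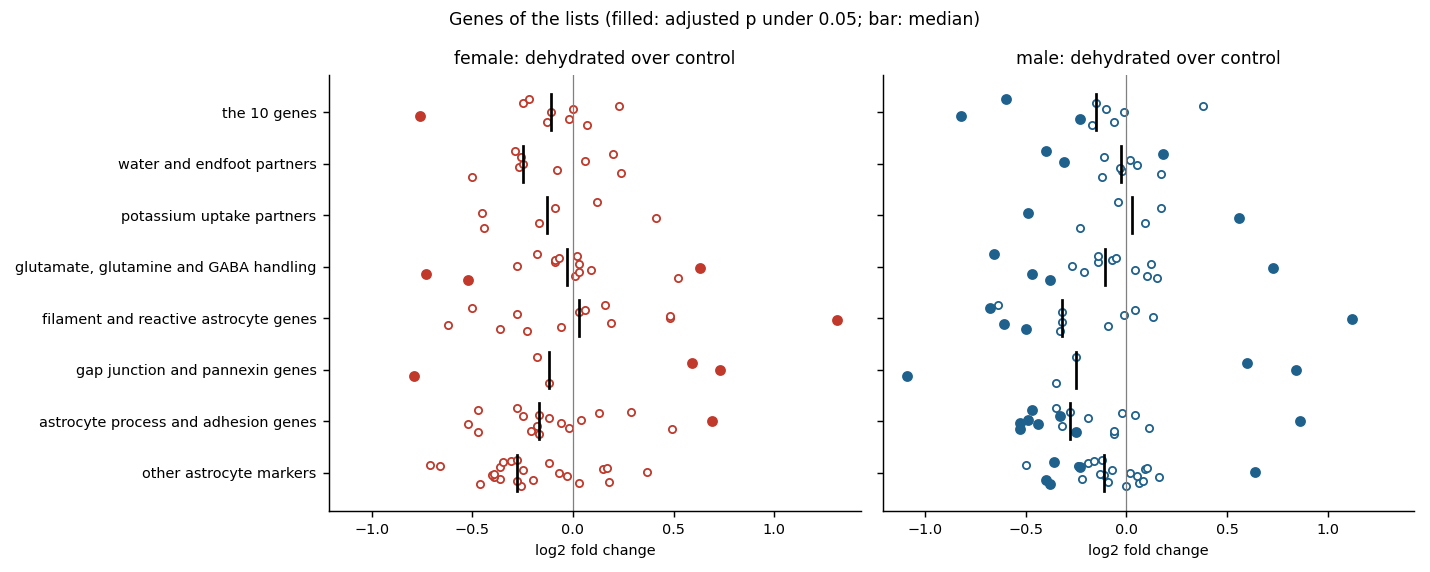
Log2 fold change of dehydrated over control (horizontal axes) for each tested gene of the 10 genes and of the other lists, females on the left and males on the right; filled points had an adjusted p under 0.05 and the black bar is the median of the list. Lcn2, Msn, Slc1a4, Gjc1 and Panx1 are filled to the right of 0 in both sexes, and Gjb6, Gjb2, Glud1 and Grm3 to the left.

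The tissue was checked against 27 other astrocyte markers, of which 24 had a probe set and 23 were tested. Of these, 0 were called in females in limma's test, while 10 were lower and 1 higher at an unadjusted p under 0.05. The smallest p there was that of Plcd4, a phospholipase, at -0.66 ± 0.18 (unadjusted p = 0.00293, adjusted p = 0.0698), and the median change was -0.28, with 18 of 23 below 0. In males 1 rose, Htra1, a secreted protease, by 0.64 ± 0.07 (2.97e-05), and 4 fell, among them Clu, which encodes clusterin, at -0.40 ± 0.09 (0.00736) and Aldh1l1, a folate enzyme used to mark astrocytes, at -0.38 ± 0.11 (0.0247). The male median was -0.11, with 15 of 23 below 0, and 8 were lower and 1 higher at an unadjusted p under 0.05. Over all probe sets tested, 53.8% lay below 0 in females and 57% in males. An unadjusted p under 0.05 was found for 4118 of 21729 in females and for 6815 in males. The mean log2 signal of the markers ranged from 10.67 to 10.93 in dehydrated females, against 10.89 to 11.19 in control females (exact permutation test, 2-sided p = 0.0857, adjusted over 12 measures 0.206), and from 11.04 to 11.26 in dehydrated males, against 11.14 to 11.28 in control males (p = 0.103, adjusted 0.177).

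Most genes on a joint list of mural cell and meninges markers were lower in the same dehydrated groups. All 17 were tested, none was at 0 on any array, and the lowest signal of any was 18.8. In females 5 of the 17 fell and 0 rose, with 15 below 0, and in males 13 fell and 1 rose, with 16 below 0. The mural cell genes were split in females. Rgs5 was at 0.72 ± 0.18 (limma, adjusted p = 0.058) and Acta2 at 0.14 ± 0.27 (0.819), but Pdgfrb at -0.22 ± 0.23 (0.65) and Tagln at -0.68 ± 0.23 (0.133). The summed signal of the 17 markers ranged from 4752 to 7826 in dehydrated females, against 7164 to 9188 in control females. In males it ranged from 5416 to 10886 on dehydrated arrays, against 9224 to 15774 on control arrays. The mean log2 signal per array was 9.78, 9.62, 9.45 and 9.77 in dehydrated females, against 10.06, 9.92, 10.26 and 10.17 in control females (exact permutation test, 2-sided p = 0.0286, the smallest that 4 against 4 arrays can give, adjusted 0.171). In males it was 10.63, 9.59, 10.40, 9.58 and 10.19 on dehydrated arrays, against 11.27, 11.24, 11.06, 10.92 and 10.24 on control arrays (exact permutation p = 0.0238, adjusted 0.0714). Control replicate 5 was the lowest male control here, as it was for Gjb6, Vim and the strong probe set of Gja1.

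A fit with this mean as a covariate was added after the data had been seen. Over all 21729 probe sets tested it called 15 in females, in place of 643, and 888 in males, in place of 3846. Within it the male change was -0.12 ± 0.13 for Gjb6 (limma, adjusted p = 0.666), 0.11 ± 0.09 for Vim (0.53), -0.08 ± 0.06 for Gja1 1372002_at (0.512) and 0.50 ± 0.20 for Slc1a3 1371130_at (0.188). The weak probe sets Aqp4 1387397_at and Slc1a3 1388064_a_at stayed past the threshold in males, at -0.73 ± 0.17 (0.0232) and -0.82 ± 0.18 (0.0156), and Glul 1386870_at passed it in the upward direction at 0.38 ± 0.10 (0.0385). In females, where the covariate did not overlap between the groups, the value of Gjb6 was -0.38 ± 0.29 (0.604). Whether fewer meningeal cells in the dissected tissue contribute to these differences was not tested.

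**Figure D5:**
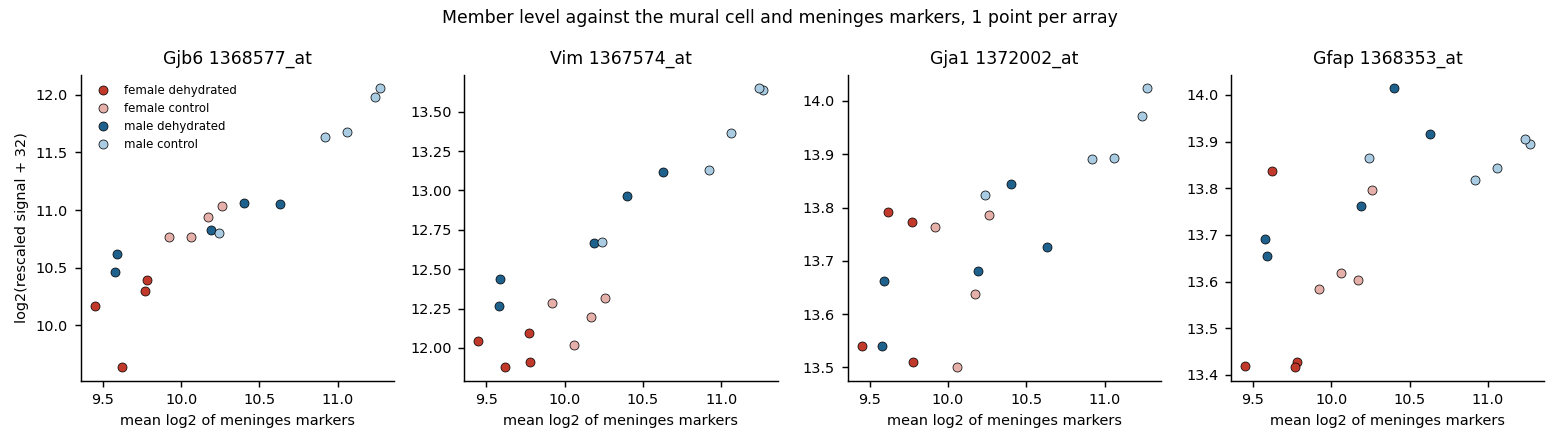
Level of Gjb6, Vim, Gja1 and Gfap (vertical axes, log2 of rescaled signal plus 32) against the mean log2 signal of the 17 mural cell and meninges markers (horizontal axes), 1 point per array, coloured by group. Arrays high in these markers, mainly control males, are also high in Gjb6 and Vim. Female and male arrays are shown together, so differences between the array sets, in sex and protocol, are part of that pattern. Gfap ranges from 13.42 to 14.01 on the arrays used, a narrower range than that of Gjb6 (9.64 to 12.05) or Vim (11.88 to 13.65).

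Other markers and measures of RNA quality were uneven as well. Of oligodendrocyte markers 4 of 11 fell in females and 1 of 11 in males, of microglia markers 0 of 10 fell in females (2 with an unadjusted p under 0.05 in limma) and 4 of 9 in males, and of blood markers 1 of 3 fell in females and 2 of 3 in males. Of 12 endothelial markers 0 were called in either sex, with an unadjusted p under 0.05 for 0 in females and 2 in males. Of 7 ependyma, tanycyte and choroid plexus markers, 0 were called in females (1 higher with an unadjusted p under 0.05, median 0.30, 1 of 7 below 0) and 2 fell in males, Foxj1 at -0.63 ± 0.14 (limma, adjusted p = 0.00833) and Ttr at -0.85 ± 0.17 (0.0032), with 5 of 7 below 0 and a median of -0.39. The ratio of 3' to 5' signal for beta-actin was 5.30 on dehydrated female replicate 4 and 13.3 on control female replicate 2, against 2.44 to 3.65 on the other 6 female arrays used. These arrays had the lowest signal of their groups in 11 and 9 of the 19 probe sets, and they held the lowest values of Slc1a3 1388064_a_at and Glul 1367633_at in those groups. Control male replicate 5, with a beta-actin ratio of 5.87, was also the lowest of its group in 9. Control female replicate 1, with a ratio of 2.44, was the lowest in 7. The share over all probe sets was not counted. In males the ratio was 6.828 to 8.998 on dehydrated arrays, against 5.228 to 7.124 on control arrays (exact permutation test, 2-sided p = 0.0238, adjusted 0.0714). The male median signal did not overlap between the groups. The part of RNA quality and of median signal in the results was not tested, apart from the fits centred on the median.

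The difference between the dehydration effects of the array sets was called for 0 of the 17 probe sets, with a background of 0.0322% over all probe sets tested (0.0184% higher and 0.0138% lower). An unadjusted p under 0.05 was found for 2, Gja1 1369640_at and Aqp4 1387397_at, both higher in the female than in the male contrast. Over all probe sets tested it was found for 2177 of 21729, so this count is no result about the 17. Among the 9 genes the difference ranged from -0.15 to 0.38. The sets have separate controls, and sex, extraction and labelling change together between them.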

How the data were processed

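RNA of rat supraoptic nuclei, pooled from 5 rats per array, was measured on Affymetrix arrays. The authors deposited an intensity per probe set, computed with GCOS 1.2 for males and MAS5 for females, per the submitters' processing notes; the 2% trimmed mean of every array is 100. Extraction used QIAzol and RNeasy and labelling an Ambion amplification kit in males, against Trizol and Affymetrix labelling in females, per the labels' protocols. Of 24 samples, 19 had values and 18 were used; 5 lactation columns held no values. No arrays were identical.

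Arrays were rescaled to 500 as trimmed mean, and 32 was added before log2. Without the 57 control probe sets, those with a mean above the 30th percentile were kept (21729 of 31042). Limma 3.58.1 in R 4.3.3 (lmFit, eBayes with a mean-variance trend, Benjamini-Hochberg adjustment, threshold 0.05) compared dehydrated with control arrays within each set, and an interaction term in 1 fit compared the sets; the fit was tested on simulated data. Where a gene had several probe sets, the one with the highest mean stood for it. Symbols came from the platform annotation: 20832 probe sets had 1 symbol, 436 several and 9831 none. Promoters came from RefSeq (GRCr8), where all 10 genes matched.

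The genes, lists and comparisons were chosen with earlier results of these data known. From each list, up to 2 rising and 2 falling genes per comparison with the largest fold change are named, or the gene with the smallest p; Glud1 in males was named after its values were seen. Array measures were compared with 2-sided exact permutation tests. Figures were drawn in Python 3.11.15 (matplotlib 3.10.9).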

Additional observations from a re-analysis of the deposited data

Results flagged for a closer look

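In each of the 4 groups, the highest and the lowest array of each of the 19 probe sets were set against the rest of the group with Dixon's criterion. It singled out 4 of the 76 groups checked, and chance alone gives about 1 in 20. Gfap had a signal of 2921 on dehydrated female replicate 2, against 2183 to 2197 on the other dehydrated females, and of 2837 on control female replicate 3, against 2451 to 2510 on the other control females. Slc1a2 1369693_a_at had 50.2 on control male replicate 1, against 21.1 to 25.7 on the other control males. Aqp4 1372190_at had 2905 on dehydrated male replicate 3, against 2378 to 2521 on the other dehydrated males.

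Dehydrated female replicate 5, which was left out, lay above all 4 control females in 8 of the 19 probe sets. The share over all probe sets was not counted, so this count is no result about these genes. For Glul its signal was 2099, against 1256 to 1657 in control females, at 1367632_at, 233, against 35.4 to 207, at 1367633_at, and 650, against 233 to 577, at 1386870_at. For Aqp4 it was 136, against 37.1 to 65.8, at 1368981_at and 2890, against 2339 to 2765, at 1372190_at. For Slc1a2 it was 81.0, against 17.3 to 39.4, at 1369693_a_at and 44.5, against 25.3 to 34.9, at 1369694_at. Gja1 1372002_at had 3226, against 2314 to 2819.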

How the results depend on the processing

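No paired analysis was possible because the labels number at most the female controls, and the numbers given to other arrays in accession order pair nothing. In females the count of member probe sets and of genes that fell was 0, in place of 1, with centring on the median, without the mean-variance trend, with the meninges covariate and with the left-out replicate 5, and 0 to 1 when an array was left out. The count of female probe sets that rose was 1 with array weights and in the fit of all 4 groups, and 0 to 1 when an array was left out. Over all 21729 probe sets tested, 259 fell in females as reported. That count was 114 with centring, 98 without the trend, 1 with the covariate and 0 with replicate 5. It was 51 to 429 when an array was left out. As reported 384 rose, against 828 with array weights and 1106 in the fit of all 4 groups. In males the genes that fell numbered 5 with quantile normalization or array weights, 1 with centring on the median or without the trend, 0 with the covariate, and 2 to 5 when an array was left out; genes that rose numbered 0 to 1. Male probe sets that fell numbered 1 with centring or without the trend, 2 with no filter, in the fit of all 4 groups or with the covariate, and 2 to 5 when an array was left out; those that rose numbered 1 to 2. Over all 21729 probe sets tested, 2038 fell in males as reported. That count was 1589 with quantile normalization, 2360 with array weights, 1091 with centring and 1661 without the trend. It was 1159 in the fit of all 4 groups, 317 with the covariate and 1420 to 2223 when an array was left out. With no filter 1645 of 31042 fell. The cause of these changes in count was not tested. The difference between the sets gave 0 members under every alternative run.

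Among values that changed sign, Vim in males was past the threshold as reported and Glul 1386870_at in males with the covariate; the others were past it in neither setting. In females they were Aqp4 1372190_at (-0.04) and S100b (-0.14) with quantile normalization, as was Glul 1386870_at (0.00). With centring Gja1 1372002_at was 0.02. With the mean of a gene's probe sets Gja1 was 0.06, Glul 0.03 and Slc1a3 0.13, and in males Slc1a3 was 0.04. With the covariate Gja1 was 0.05 and Glul 1367632_at 0.08 in females, and in males Aqp4 1368981_at was 0.07, Gfap 0.09, Glul 1367632_at 0.18, Glul 1386870_at 0.38, S100b 0.05 and Vim 0.11. With the left-out replicate 5 Gja1 was 0.05, Glul 1367632_at 0.03 and S100b -0.05. With array weights Glul 1367633_at was 0.00, Glul 1386870_at -0.05, S100b -0.03 and Slc1a3 1388064_a_at -0.19 in females, and -0.01 with an offset of 100. In males, centring gave Gfap 0.02, Glul 1367632_at 0.07 and Glul 1386870_at 0.05. When an array was left out, the female ranges that crossed 0 were those of Aqp4 1368981_at (-0.04 to 0.24) and 1372190_at (-0.01 to 0.13), Gja1 1372002_at (-0.07 to 0.03), Glul 1367633_at (-0.37 to 0.50) and 1386870_at (-0.22 to 0.21), S100b (-0.13 to 0.08) and Slc1a3 1388064_a_at (-0.51 to 0.34), and in males those of Glul 1367632_at (-0.06 to 0.04) and 1386870_at (-0.15 to 0.04).

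Over all probe sets, 643 were called in females, against 1709 with array weights, 2322 in the fit of all 4 groups, 290 without the trend, 15 with the covariate and 1 with the left-out replicate 5; in males 3846 were called, against 2270 in the fit of all 4 groups and 888 with the covariate. Centring split the male calls into 2710 higher and 1091 lower, against 1808 and 2038, and the female calls into 348 and 114, against 384 and 259. Replicate numbers limit all of these, as does the low signal of Kcnj10 and Slc1a2.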

Other observations

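Levels differed between the array sets as well as within them. Vim averaged 941 ± 84.8 on control female arrays (SD, n = 4) and 2059 ± 535 on control male arrays (SD, n = 5), and Aqp4 1368981_at 46.7 ± 13.2 and 163 ± 40.7. Slc1a3 1371130_at went the other way, with 175 ± 24.3 on control female and 55.3 ± 15.4 on control male arrays. Sex and protocol cannot be told apart in these values. Among neuron markers 3 of 10 tested rose in dehydrated males and 0 of 9 in dehydrated females in limma's test, with unadjusted p under 0.05 for 2 higher and 2 lower in females. Of 7 magnocellular neuron markers 1 rose in each sex, and 0 fell in females and 1 in males.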
